A study of Mus musculus with 8 samples.

Results

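Proteases that act on the extracellular matrix, on the cell surface or in lysosomes, and the inhibitors that hold them in check, were examined in mesenchymal stem cells (MSC) grown from the bone marrow of NOD and BALB/c mice. The genes were those whose mouse symbol begins with Mmp, Timp, Adam or Adamts and a number, Cts and a letter, or Serpin and a letter from a to i, and whose gene ID stands in a probe identifier of the array. There were 69 such genes among 8102 named genes, carried by 79 of the array's 46628 probes. Of the 69 genes, 22 were tested, because a probe of theirs had a detection p-value under 0.05 on at least 4 of the 8 arrays. The names of these families do not always give a protein's activity: Adam23 encodes an ADAM without a working protease site, and Serpinf1 and Serpinh1 encode serpins that do not inhibit proteases.

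The NOD mouse develops autoimmune diabetes, and the BALB/c mouse does not. NOD cultures came from mice with normal blood glucose and BALB/c cultures from mice of the same age, which the labels do not give. There were 4 cultures of each strain, each hybridised to 1 single-colour Illumina array. Per the series text, leg-bone marrow was pooled from at least 5 animals and the cells were used at passage 4, whereas the sample titles read as single mice. That text also mentions interleukin-1 beta, but the labels mark no array with it, and all cultures were taken as untreated. In the series text the numbering of the samples starts with NOD, but the sample labels start with BALB/c. Strain was taken from the labels, and the sign of every difference below rests on them. No transgene, deletion or drug is named for either strain.

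Matrix metalloproteinases (MMPs) and ADAMTS enzymes cut collagens, proteoglycans and other matrix proteins outside the cell, and ADAMs release growth factors, cytokines and receptors from the cell surface. TIMPs bind and block the active sites of MMPs and of some ADAMs and ADAMTS enzymes. Most serpins trap a serine or cysteine protease by an irreversible change of shape, and cathepsins are proteases mostly of lysosomes. In bone marrow these proteins take part in matrix turnover, in the release of blood cells and in the handling of collagen by stromal cells.

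NOD MSC had higher levels of 3 members: Serpina3g, an intracellular serpin known in mice as an inhibitor of cysteine cathepsins, Adam23, which binds integrins, and Timp3, the TIMP that stays bound to the matrix. Sequence upstream of each of these 3 genes is given here, as part of the DNA at which their transcription starts. The stretches are those before the start that RefSeq's promoter table gives, in assembly GRCm38.p6, 5′ to 3′ on the strand of the gene, and capitals mark the motifs searched for. Those of Serpina3g and Timp3 hold 250 bases. For Adam23 that start lies inside the annotated gene, so the 174 bases within the gene were left out and 76 are shown.
Serpina3g (chr12:104235897-104236146, + strand): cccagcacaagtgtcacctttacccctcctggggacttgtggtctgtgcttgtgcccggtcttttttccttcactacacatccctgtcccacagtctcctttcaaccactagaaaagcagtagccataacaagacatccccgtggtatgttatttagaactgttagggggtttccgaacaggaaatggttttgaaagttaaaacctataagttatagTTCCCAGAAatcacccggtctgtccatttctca
Adam23 (chr1:63445641-63445716, + strand): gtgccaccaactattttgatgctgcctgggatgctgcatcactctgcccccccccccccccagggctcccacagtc
Timp3 (chr10:86300162-86300411, + strand): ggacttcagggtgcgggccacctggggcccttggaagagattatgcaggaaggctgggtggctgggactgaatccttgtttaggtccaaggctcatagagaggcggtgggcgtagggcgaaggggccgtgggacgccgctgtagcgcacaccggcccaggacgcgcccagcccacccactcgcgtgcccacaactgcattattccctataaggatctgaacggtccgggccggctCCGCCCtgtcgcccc
3 motifs were searched on both strands, and those found did not overlap. The Sp1-type GC box was searched as GGGCGG. The TATA box was searched as TATAAA. The site form of STAT factors was searched as TTCNNNGAA. The Timp3 stretch held 1 GC box, read on the opposite strand as the capitals show, and 32.7% of 32851 RefSeq promoters held that motif in the same 250 bases. The Serpina3g stretch held 1 STAT-type motif, found in 7.02% of the promoters. None of the 3 stretches held the TATA box letters, which were present in 12.4% of the promoters in 250 bases. The Adam23 stretch, with 76 bases and without those nearest the start, cannot be set against that share. The letters alone do not show that a factor binds. G and C made up 46.0% of the Serpina3g stretch, with 4 CpG dinucleotides, and 65.6% of that of Timp3, with 18 CpG, and the median over the promoters was 52.4%. G and C content was lower than that of Serpina3g in 27.1% of promoters and lower than that of Timp3 in 83.8%. The shorter Adam23 stretch was 64.5% G and C and was not ranked.

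Levels below are log2 signal after background correction and quantile normalization, and a difference is NOD minus BALB/c on that scale, followed by its standard error (SE) from the limma fit. The median raw signal was 68.7 to 78.6 on the NOD arrays and 56.5 to 74.9 on the BALB/c arrays, and 36.2% to 39.4% of probes were detected on each. Across tested probes the correlation between arrays was 0.927 to 0.985 within NOD, 0.841 to 0.983 within BALB/c and 0.810 to 0.905 between the strains. NOD culture 4 lay at the mean of the other 3 NOD cultures. It correlated 0.996 with their mean and was inside their range for 84.7% of probes, against 32.6% to 50.2% for NOD cultures 1 to 3 and 32.7% to 65.1% for the BALB/c cultures. For the 22 tested members, NOD culture 4 was inside that range in 19. Whether it is a culture independent of those 3 cannot be told from the files. Means, SDs and p-values with n = 4 count it as independent, and where it is not, the p-values are too small. Calls of members are therefore given with and without it, and also without BALB/c culture 3, which was the outermost BALB/c culture for 12 of the 22 members (54.5%) and for 36% of all named genes tested. BALB/c culture 2 was outermost for 27.3% of the members but for 41.9% of all named genes tested. Its correlation with the mean of the other BALB/c cultures was 0.877, the lowest of all cultures, and that of culture 3 was 0.905.

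Of 12 listed MSC markers, 6 had a named probe and all 6 were tested. Between 5 and 6 of them were detected on the NOD arrays and 5 on each BALB/c array, and their summed signal was 19568 to 26307 in NOD and 10561 to 25554 in BALB/c. Vcam1, an adhesion molecule of marrow stroma, rose in NOD by 1.14 ± 0.20 (adjusted p = 0.00949), and so did the collagen chain gene Col1a2 by 1.22 ± 0.31 (adjusted p = 0.0471). Without NOD culture 4 neither passed, with adjusted p-values of 0.0577 for Vcam1 and 0.124 for Col1a2, and without BALB/c culture 3 both did (0.0119 and 0.0153). Col1a2 also missed the threshold without NOD culture 1, 2 or 3 or BALB/c culture 1 or 4, with adjusted p-values of 0.0891 to 0.123. The adhesion receptor Cd44 was detected on 3 NOD arrays and 1 BALB/c array, and Alcam, another adhesion molecule, on 4 NOD and 3 BALB/c arrays. Neither passed, with differences of 0.27 for Cd44 (adjusted p = 0.550) and 1.28 for Alcam (adjusted p = 0.173). The collagen chain gene Col1a1, at 0.42 (adjusted p = 0.458), did not pass either. Eng went the other way, at -0.65, and did not pass (adjusted p = 0.569). That direction rested on BALB/c culture 3, at 10.05, with the other BALB/c cultures at 7.13 to 7.37 and NOD at 6.49 to 8.01. Of 14 leukocyte markers, 6 had a named probe, and Ptprc, Itgam and Cd3e, which define leukocytes, myeloid cells and T cells, were detected on no array. The leukocyte sum was 94.9 to 344 in NOD and 130 to 2899 in BALB/c. Cd68, a macrophage gene, was detected on none of the NOD arrays and on all 4 BALB/c arrays. It was at least 3.76-fold lower in NOD, with an adjusted p of 0.0614 that missed the threshold. Its probe met the detection filter through the BALB/c arrays alone. Csf1r, the receptor for macrophage growth factor, was detected on 1 BALB/c array, and Lyz2, the lysozyme of myeloid cells, on 2 NOD and 3 BALB/c arrays. The named osteoclast marker Ocstamp and the endothelial marker Pecam1, each the only one of its list with a named probe, were detected on no array. The part that other cells had in the results was not tested. In bulk RNA, fewer cells of a type and less RNA per cell cannot be told apart.

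Among the 22 tested members, 3 were called at an adjusted p under 0.05 (13.6%), all 3 of them higher in NOD, against a background of 9.1% of the 4220 named genes tested. In that background 4.15% were called higher and 4.95% lower, and of all 17745 tested probes, most of them unnamed, 8.52% were called. A count of 3 in 22 is near the background share and is not a result about these families as a whole. The members' differences were positive for 12 and negative for 10, and their median was 0.090, compared with -0.021 over all named genes. The median absolute difference was 0.381 for the members and 0.390 for all named genes. The arrays of the strains did not overlap for 4 members (18.2%), against 18.9% of all named genes.

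**Figure D1:**
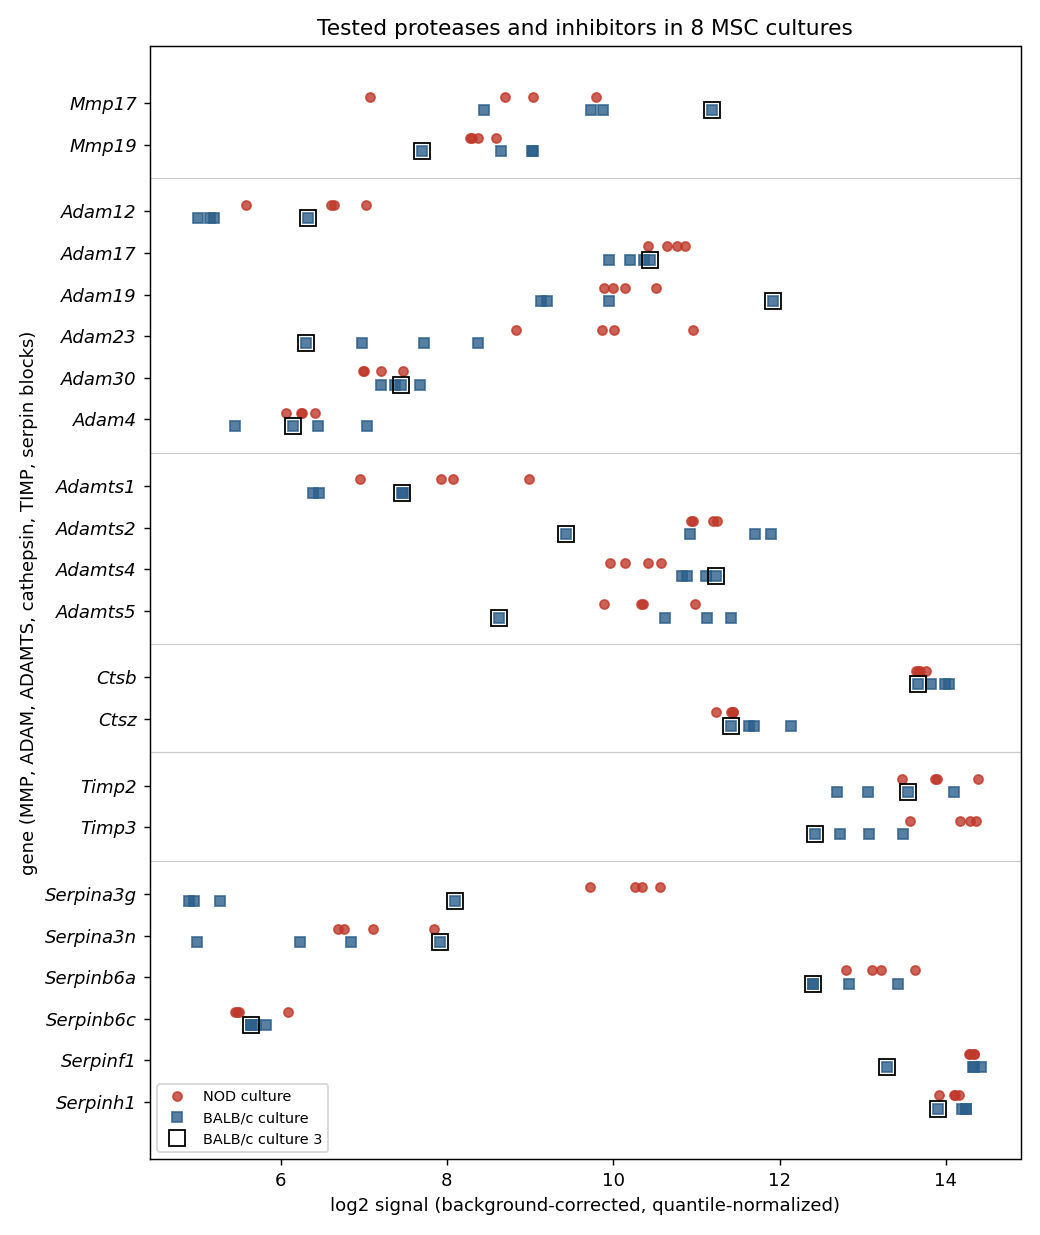
Log2 signal (x axis) of each of the 22 tested members (y axis, in blocks of related families) in the 4 NOD cultures (circles) and the 4 BALB/c cultures (squares), with BALB/c culture 3 outlined. Serpina3g shows the widest gap between strains, and the outlined BALB/c culture sits apart from its group for Serpina3g, Adam19, Adamts2 and Adamts5; levels of different genes come from different probes and are not compared.

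Serpina3g had the largest difference of all tested members. Its level was 10.35, 9.72, 10.56 and 10.26 in NOD cultures 1 to 4, against 4.90, 5.27, 8.09 and 4.96 in BALB/c cultures 1 to 4. The raw signals behind these values were 1408, 1019, 2052 and 1423 in NOD and 46.2, 79.9, 297 and 47.4 in BALB/c. All NOD cultures were above all BALB/c cultures, and in BALB/c the probe was detected in culture 3 alone. The means were 10.22 ± 0.36 in NOD and 5.81 ± 1.53 in BALB/c (SD, n = 4 each), which gave a difference of 4.41 ± 0.67 (95% interval 2.90 to 5.93, adjusted p = 0.00492). With the 3 undetected BALB/c arrays set to the higher of their own value and the lowest level of a detected probe, the fold was at least 18.2. The NOD mean stood 2.13 above BALB/c culture 3, a fold of 4.37. The NOD arrays alone were enough for this probe to meet the detection filter, and the BALB/c arrays alone were not. Being tested and being higher in NOD were thus tied, so the p-value is not separate support for that direction. With no filter on dim probes Serpina3g was also called.

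Without BALB/c culture 3 the Serpina3g difference was 5.19 (adjusted p = 3.2e-05), and without NOD culture 4 it was 4.39 (adjusted p = 0.0265). Without both cultures numbered 4, an alternative chosen after seeing the data, it was 4.11 with an adjusted p of 0.110. With the detection p-values used as deposited it was 2.36 and passed (adjusted p = 0.00226). Serpina3g belongs to a group of close relatives on mouse chromosome 12, and the files give no probe sequence, so signal from a near-identical relative cannot be separated from its own. Of the relatives that have a probe, Serpina3n was detected on 4 NOD and 3 BALB/c arrays and was, like Serpina3g, highest in BALB/c in culture 3, while Serpina3a and Serpina3m were detected on no array.

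Adam23 encodes a surface protein of the ADAM family that lacks catalytic activity. Its level was 8.84, 9.86, 10.96 and 10.01 in NOD cultures 1 to 4, against 6.98, 7.73, 6.31 and 8.38 in BALB/c cultures 1 to 4. NOD culture 3 was the highest and BALB/c culture 3 the lowest, and the groups were separated by 8.84 in NOD culture 1 and 8.38 in BALB/c culture 4. The means were 9.92 ± 0.87 in NOD and 7.35 ± 0.90 in BALB/c (SD, n = 4 each). Adam23 was 5.94-fold higher in NOD, a difference of 2.57 ± 0.54 (95% interval 1.35 to 3.79, adjusted p = 0.0222). The probe was detected on all 8 arrays.

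The Adam23 call was lost when some single cultures were left out. The adjusted p was 0.0592 without NOD culture 2, 0.0654 without NOD culture 3, 0.0845 without NOD culture 4 and 0.0796 without BALB/c culture 1, while the difference remained between 2.22 and 2.94 whichever culture was left out. Without BALB/c culture 3 it was 2.23 and passed (adjusted p = 0.0292). Named genes called also fell without NOD culture 2, 3 or 4 or BALB/c culture 1, from 384 to 218, 189, 133 and 159. The Adam23 call was kept without NOD culture 1 and without BALB/c culture 4, where 178 and 172 named genes were called.

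Timp3 encodes the inhibitor that stays in the matrix and blocks MMPs, Adam17 and the aggrecanases Adamts4 and Adamts5. Its brighter probe had levels of 13.57, 14.29, 14.36 and 14.17 in NOD cultures 1 to 4, against 13.08, 12.72, 12.43 and 13.48 in BALB/c cultures 1 to 4. The groups were close at their edges, with NOD culture 1 just above BALB/c culture 4, and did not overlap. The mean was 14.10 ± 0.36 in NOD and 12.93 ± 0.46 in BALB/c (SD, n = 4 each). The difference was 1.17 ± 0.28 (95% interval 0.52 to 1.81, adjusted p = 0.0388), a fold of 2.25. The highest level on any array was 14.74, so this probe worked near the top of the measured range.

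A second Timp3 probe, dimmer and so further from the top of the range, moved the same way. Its levels were 9.95, 9.85, 12.00 and 10.61 in NOD cultures 1 to 4, against 7.66, 9.37, 7.77 and 8.28 in BALB/c cultures 1 to 4. NOD culture 3 was far above the other NOD cultures, and BALB/c culture 2 came nearest to the NOD values without reaching them. The difference was 2.33 ± 0.54 (adjusted p = 0.0338). Both probes passed the test, and they differed in the size of the difference. The second probe also missed the threshold when single cultures were left out, with adjusted p-values of 0.110 without NOD culture 4 and 0.0532 without BALB/c culture 3. Without NOD culture 1, 2 or 3 or BALB/c culture 1 or 4 its adjusted p was 0.0505 to 0.111, and without BALB/c culture 2 it passed (0.0121). Its difference stayed between 1.86 and 2.70.

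The Timp3 call on the brighter probe was lost without the same single cultures as that of Adam23, where fewer named genes were called. The adjusted p was 0.0958 without NOD culture 2, 0.111 without NOD culture 3, 0.135 without NOD culture 4 and 0.0971 without BALB/c culture 1, with differences of 1.00 to 1.35 over the 8 ways to leave out a culture. Without BALB/c culture 3 it was 1.00, with an adjusted p of 0.0498. Median scaling in place of quantile normalization gave 1.17 with an adjusted p of 0.0518.

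**Figure D2:**
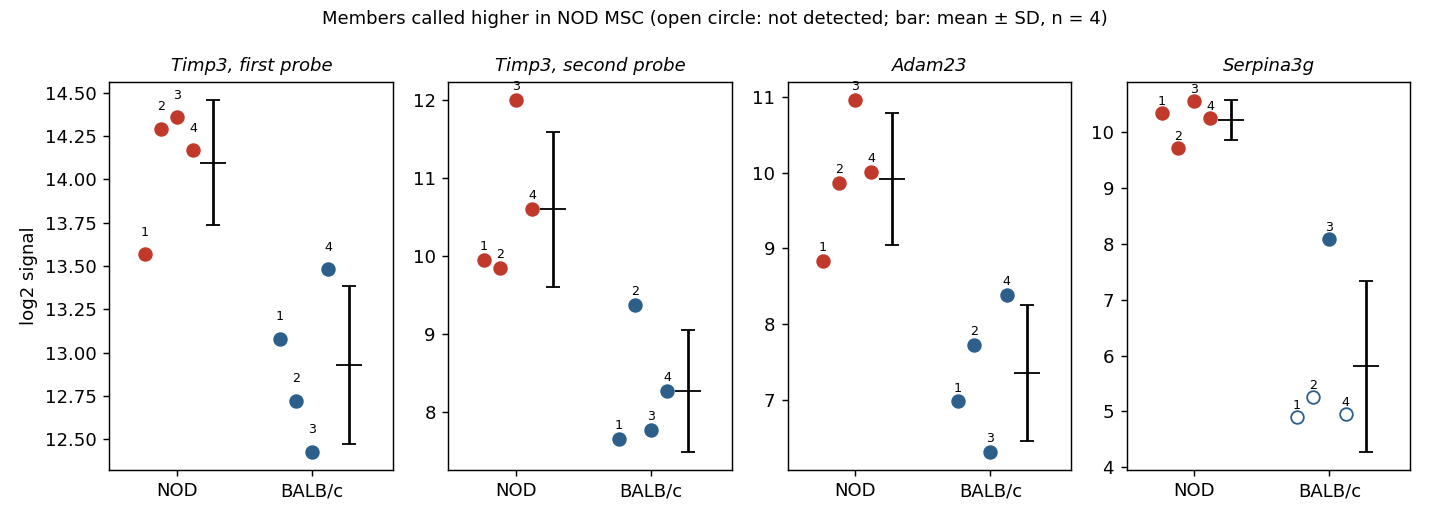
Log2 signal (y axes, each with its own scale) of the 3 members called higher in NOD, with both Timp3 probes and a panel per probe, and with NOD cultures on the left and BALB/c cultures on the right of each panel; points are cultures with their number, open circles mark arrays without detection, and bars give the mean ± SD (n = 4). In each panel all NOD points lie above all BALB/c points, and for Serpina3g BALB/c culture 3, at 8.09, stands alone between them.

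Timp2, the other TIMP with a named probe, blocks MMPs and also takes part in activating one of them at the cell surface. Its level was 13.87, 13.47, 14.38 and 13.89 in NOD cultures 1 to 4, against 13.06, 14.10, 13.55 and 12.69 in BALB/c cultures 1 to 4. BALB/c cultures 2 and 3 lay within the NOD values, so the groups overlapped. The difference of 0.55 ± 0.33 did not pass the test (95% interval -0.20 to 1.31, adjusted p = 0.335). Without both BALB/c cultures 2 and 3, where 1425 named genes were called, Timp2 passed and Timp3 did not. Whether Timp3 and Timp2 differed from each other in their response to strain was not tested.

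Among the proteases that Timp3 is known to block, none passed the test. Adam17, the sheddase that frees tumour necrosis factor from the cell surface, had levels of 10.42, 10.77, 10.86 and 10.65 in NOD cultures 1 to 4, against 9.95, 10.20, 10.44 and 10.37 in BALB/c cultures 1 to 4. NOD culture 1 lay just below BALB/c culture 3, and the other NOD cultures were above every BALB/c culture. The difference was 0.43 ± 0.19 (adjusted p = 0.202).

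Adamts4, an aggrecan-cutting enzyme of cartilage and other matrix, had levels of 9.96, 10.41, 10.58 and 10.15 in NOD cultures 1 to 4, against 10.83, 10.88, 11.24 and 11.12 in BALB/c cultures 1 to 4. Every NOD culture was below every BALB/c culture. Its mean was 10.27 ± 0.28 in NOD and 11.02 ± 0.19 in BALB/c (SD, n = 4 each), and the difference of -0.74 ± 0.21 just missed the threshold (95% interval -1.21 to -0.28, adjusted p = 0.0597). With each culture left out in turn it passed without BALB/c culture 2 alone (-0.79, adjusted p = 0.0405). In the other 7 ways the adjusted p was 0.0746 to 0.194, with 0.194 without NOD culture 4 and 0.0746 without BALB/c culture 3.

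Adamts5, the other main aggrecanase, had levels of 10.33, 10.98, 9.89 and 10.36 in NOD cultures 1 to 4, against 11.42, 10.62, 8.62 and 11.12 in BALB/c cultures 1 to 4. BALB/c culture 3 was the lowest of all 8 and the other BALB/c cultures were among the higher ones. The difference was -0.054 ± 0.57 (adjusted p = 0.966), and without BALB/c culture 3 it was -0.66. Adamts2, which trims the amino-terminal propeptide from procollagen, behaved alike in that culture, with 11.20, 11.24, 10.96 and 10.93 in NOD cultures 1 to 4 and 11.71, 10.92, 9.44 and 11.89 in BALB/c cultures 1 to 4. Its difference was 0.094 ± 0.49 (adjusted p = 0.927), and without BALB/c culture 3 its sign turned, at -0.43. Adamts1, which cuts versican and aggrecan, had 8.07, 6.95, 8.98 and 7.93 in NOD cultures 1 to 4, against 6.46, 7.48, 7.46 and 6.39 in BALB/c cultures 1 to 4. NOD culture 2 lay within the BALB/c values, and the difference of 1.04 ± 0.45 did not pass the test (adjusted p = 0.193).

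The other ADAMs that were tested did not pass either. Adam12, an ADAM of muscle and connective tissue cells, had levels of 5.59, 6.65, 7.03 and 6.60 in NOD cultures 1 to 4, against 5.20, 5.15, 6.33 and 5.00 in BALB/c cultures 1 to 4, close to background. It was detected in NOD cultures 2, 3 and 4 and in BALB/c culture 3, and the difference was 1.05 ± 0.39 (adjusted p = 0.137). Adam19, a sheddase of growth factors such as neuregulin, had levels of 9.89, 9.99, 10.52 and 10.14 in NOD cultures 1 to 4 and 9.20, 9.13, 11.92 and 9.95 in BALB/c cultures 1 to 4. BALB/c culture 3 was the highest of all 8, and the difference was 0.086 ± 0.57 (adjusted p = 0.944). Without that culture the Adam19 difference was 0.71. Adam30 and Adam4 differed by -0.26 (adjusted p = 0.446) and -0.026 (adjusted p = 0.970).

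Only 2 of the 7 MMP genes with a named probe were tested. Mmp17, a membrane-anchored MMP, had levels of 9.80, 8.70, 7.08 and 9.03 in NOD cultures 1 to 4, against 9.87, 8.44, 11.18 and 9.74 in BALB/c cultures 1 to 4. It had the widest range of any tested member within NOD, with culture 3 the lowest and culture 1 the highest, and in BALB/c culture 3 was the highest. The groups overlapped, and the difference was -1.16 ± 0.68 (95% interval -2.70 to 0.39, adjusted p = 0.325). Mmp19, a secreted MMP of matrix turnover, had levels of 8.27, 8.59, 8.38 and 8.30 in NOD cultures 1 to 4, against 9.04, 8.65, 7.70 and 9.02 in BALB/c cultures 1 to 4. BALB/c culture 3 was the lowest, the other BALB/c cultures were above all NOD cultures, and the difference was -0.22 ± 0.31 (adjusted p = 0.693). Mmp12, an elastase of macrophages, was detected on 2 arrays, both of BALB/c, and Mmp24 on 2 NOD arrays and 1 BALB/c array.

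Of the cathepsins, Ctsb and Ctsz were tested. Ctsb encodes the lysosomal cysteine protease that Serpina3g is known to inhibit, and its brighter probe had levels of 13.77, 13.66, 13.64 and 13.69 in NOD cultures 1 to 4, against 14.04, 13.82, 13.66 and 13.99 in BALB/c cultures 1 to 4. The groups overlapped through BALB/c culture 3, and the difference was -0.19 ± 0.17 (adjusted p = 0.522). A second, dimmer Ctsb probe had levels of 11.44, 11.16, 10.98 and 11.21 in NOD cultures 1 to 4, against 12.37, 12.02, 11.58 and 12.54 in BALB/c cultures 1 to 4. Here every NOD culture was below every BALB/c culture, and the difference was -0.93 ± 0.25 (adjusted p = 0.0518). The probes thus differed in the size of the difference and neither passed. The dimmer probe did pass without BALB/c culture 3 (-1.12, adjusted p = 0.0115) and without BALB/c culture 2 (-0.96, adjusted p = 0.0403), and without NOD culture 4 its adjusted p was 0.157. Ctsz, a lysosomal carboxypeptidase, had 11.42, 11.44, 11.24 and 11.45 in NOD cultures 1 to 4, against 11.64, 12.14, 11.42 and 11.70 in BALB/c cultures 1 to 4. The lowest BALB/c culture fell among the NOD cultures, and the difference of -0.33 ± 0.20 did not pass (adjusted p = 0.333). Macrophages are rich in cathepsins, and the leukocyte marker sum was highest in BALB/c cultures 2 and 4, at 2899 and 1571, against 94.9 to 344 in NOD. In BALB/c cultures 1 and 3 the sum was 432 and 130, and both Ctsb probes were higher in culture 1 than in culture 2. The markers differed in their order. Over BALB/c cultures 1 to 4, Lyz2 stood at 7.36, 11.42, 5.20 and 9.85, and Cd68 at 7.93, 6.89, 6.02 and 9.09. Cd68 was thus also higher in culture 1 than in culture 2, while Lyz2 was lower. The part of leukocytes in the cathepsin values was not tested.

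**Figure D3:**
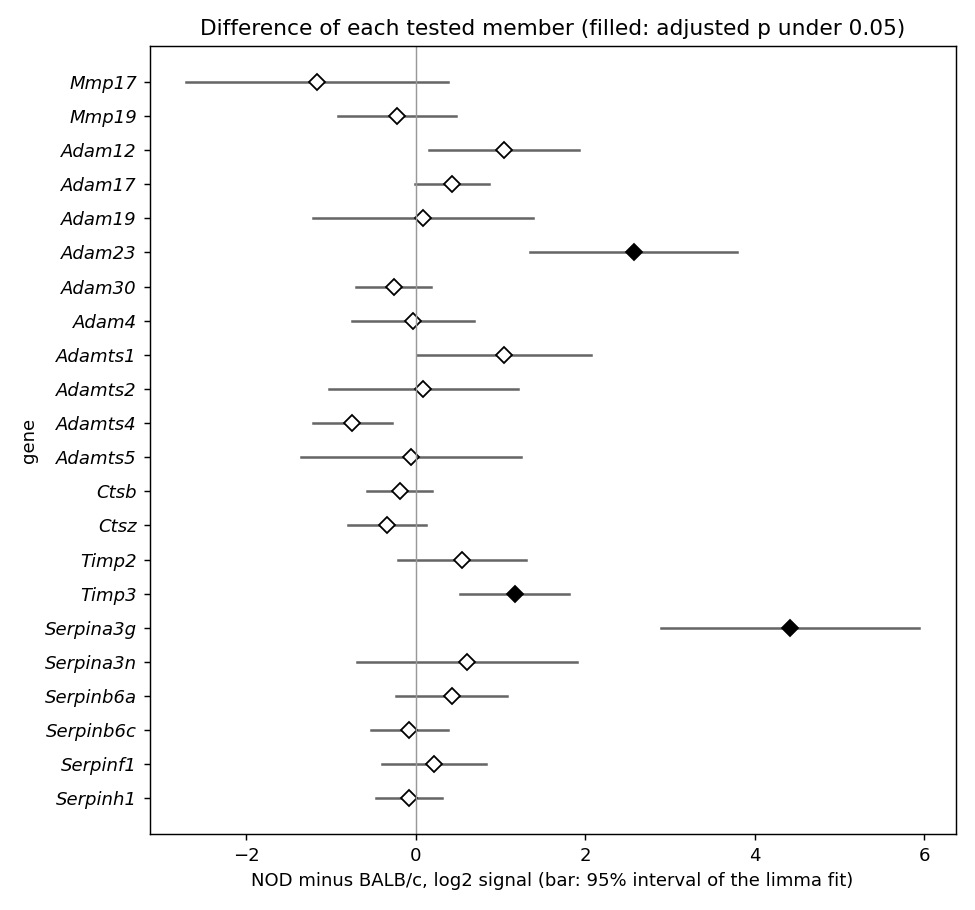
Difference NOD minus BALB/c in log2 signal (x axis) for each of the 22 tested members (y axis), with the 95% interval of the limma fit as a bar and filled symbols for members with an adjusted p under 0.05. The 3 filled symbols, Serpina3g, Adam23 and Timp3, lie to the right of 0 at 4.41, 2.57 and 1.17, and Mmp17 has the widest interval, from -2.70 to 0.39.

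The serpins numbered 28, the most of any family, and 6 were tested. Apart from Serpina3g, none passed. Serpina3n, an extracellular serpin that inhibits granzyme B and other serine proteases, had levels of 6.76, 6.69, 7.84 and 7.11 in NOD cultures 1 to 4, against 6.85, 4.99, 7.92 and 6.23 in BALB/c cultures 1 to 4. BALB/c culture 2 was the lowest, with no detection, BALB/c culture 3 was the highest, and the difference was 0.60 ± 0.57 (adjusted p = 0.545). In BALB/c, culture 3 was the highest for Serpina3g and for Serpina3n.

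Serpinb6a, an intracellular inhibitor of serine proteases such as cathepsin G, had 13.12, 12.80, 13.63 and 13.23 in NOD cultures 1 to 4, against 12.40, 13.42, 12.41 and 12.83 in BALB/c cultures 1 to 4. The groups overlapped, and the difference was 0.43 ± 0.29 (adjusted p = 0.389). Its relative Serpinb6c was near background, at 5.45 to 6.09 in NOD and 5.64 to 5.82 in BALB/c, and was detected on 1 NOD and 3 BALB/c arrays. The Serpinb6c difference was -0.071 (adjusted p = 0.854).

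Serpinf1 encodes a secreted factor that limits vessel growth and affects bone. It had levels of 14.34, 14.34, 14.29 and 14.28 in NOD cultures 1 to 4, against 14.34, 14.33, 13.30 and 14.42 in BALB/c cultures 1 to 4. The other 7 cultures lay between 14.28 and 14.42, and the difference was 0.22 ± 0.27 (adjusted p = 0.653). Serpinh1, the chaperone of the endoplasmic reticulum that folds procollagen, had 14.16, 14.10, 13.92 and 14.11 in NOD cultures 1 to 4, against 14.25, 14.24, 13.91 and 14.20 in BALB/c cultures 1 to 4. The difference was -0.076 ± 0.17 (adjusted p = 0.813). Both probes also read near the top of the measured range, at up to 14.42, where 14.74 was the highest level.

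BALB/c culture 3 differed from the mean of the other BALB/c cultures by 3.05 for Serpina3g, 2.49 for Adam19, 1.90 for Serpina3n, 1.83 for Mmp17 and 1.22 for Adam12. In the other direction it stood at -2.43 for Adamts5, -2.07 for Adamts2, -1.39 for Adam23, -1.20 for Mmp19 and -1.07 for Serpinf1. It was thus high in some members and low in others, with proteases on both sides, and its leukocyte marker sum was the lowest in BALB/c, at 130. The spread within strain was larger in BALB/c than in NOD for 16 of the 22 members (72.7%) and for 76.2% of all named genes. The median SD of the members was 0.292 in NOD and 0.608 in BALB/c, and over all named genes it was 0.264 in NOD and 0.438 in BALB/c.

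**Figure D4:**
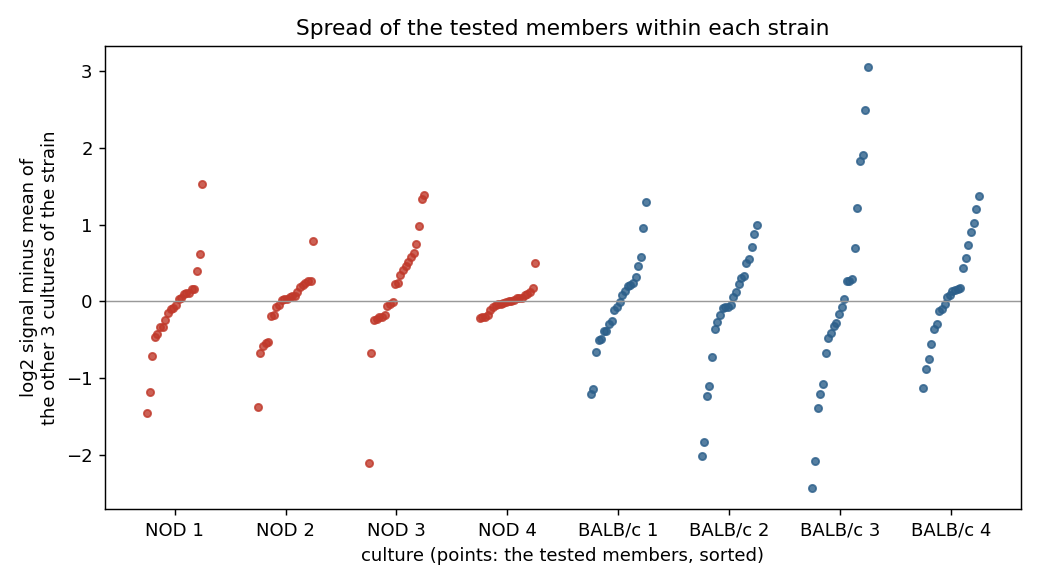
Log2 signal of each tested member in a culture minus the mean of the other 3 cultures of its strain (y axis), with the 4 NOD cultures left of the 4 BALB/c cultures (x axis) and the 22 members as points. NOD culture 4 stays close to 0, inside the range of the other NOD cultures for 19 of 22 members, while BALB/c culture 3 spreads from -2.43 to 3.05.

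The 47 members that were not tested comprised 36 detected on no array by any probe and 11 detected on 1 to 3 arrays. By family, the tested genes were 2 of 7 MMPs, 6 of 17 ADAMs, 4 of 9 ADAMTS genes, 2 of 6 cathepsins, both TIMPs and 6 of 28 serpins. Genes detected on no array included Adam10, the sheddase of Notch and cadherins, Ctsl, a lysosomal cysteine protease, the liver serpins Serpina1a, Serpina1b, Serpina1d, Serpina1e and Serpinc1, and Serpinb5. A probe that is not above background does not show that the gene is not expressed, and further probes of the same genes may be among those unnamed here. Of the 11 genes detected on 1 to 3 arrays, Adam22, Adam6b, Adamts16, Ctso, Mmp12, Serpina9 and Serpinb9f were detected on none of the NOD arrays and on 1 or 2 BALB/c arrays each, and Adamts8 on 1 NOD array and none of the BALB/c arrays, differences that were not tested. Adam11, Mmp24 and Serpinb3c were detected in both strains.

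Other genes of the same pathways were read from lists of partners. Of 10 genes of the plasminogen system, Lrp1, the receptor that clears protease and inhibitor complexes, was the only one with a named probe, and its difference of -0.34 ± 0.28 did not pass the test (adjusted p = 0.478). Of 16 other extracellular proteases and activators, 4 were tested, namely Bmp1, Htra3, Furin and Pcsk7, and none passed. Bmp1, which trims the carboxy-terminal propeptide from procollagen, differed by 0.19 ± 0.47 (adjusted p = 0.830). Htra3, a secreted serine protease, had 9.38, 10.24, 9.61 and 9.80 in NOD cultures 1 to 4, against 9.29, 7.58, 5.35 and 8.42 in BALB/c cultures 1 to 4. The groups did not overlap, with a difference of 2.10 ± 0.73 (adjusted p = 0.115).

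Of 15 genes on a list of other inhibitors, Cst3, Reck, Tfpi and Pcolce were tested and 1 passed, as higher in NOD. The list is not of inhibitors alone, because Pcolce and Pcolce2 encode enhancers of procollagen cleavage. Tfpi, which blocks the start of blood coagulation, had levels of 6.23, 7.16, 5.92 and 5.68 in NOD cultures 1 to 4, against 5.29, 4.99, 4.85 and 4.92 in BALB/c cultures 1 to 4. It was detected on all 4 NOD arrays and on no BALB/c array, which makes its level in NOD at least 1.88-fold higher, with an adjusted p of 0.0470. Tfpi thus met the detection filter through the NOD arrays alone. Being tested and being higher in NOD were tied, so its p-value is not separate support for that direction. Without any 1 of the NOD cultures Tfpi was detected on too few arrays to be tested. Its adjusted p was 0.0919 without BALB/c culture 1, 0.0441 without culture 2, 0.0643 without culture 3 and 0.127 without culture 4. The cathepsin inhibitor Cst3, cystatin C, had 13.89, 13.88, 14.02 and 13.90 in NOD cultures 1 to 4, against 14.37, 14.40, 13.90 and 14.13 in BALB/c cultures 1 to 4, and did not pass (-0.27 ± 0.18, adjusted p = 0.386).

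Of 10 matrix proteins that these proteases cut, Vcan, Hspg2, Dcn and Spp1 were tested and none passed. Decorin (Dcn), a small proteoglycan that binds collagen fibrils, had 12.82, 12.87, 13.25 and 12.91 in NOD cultures 1 to 4, against 14.17, 13.67, 13.38 and 13.76 in BALB/c cultures 1 to 4. All NOD cultures were below all BALB/c cultures, with a difference of -0.78 ± 0.22 that missed the threshold (adjusted p = 0.0614). Dcn had 2 tested probes, and these values are those of the brighter one alone. Osteopontin (Spp1), a secreted protein of bone matrix, differed by -0.18 ± 0.16 (adjusted p = 0.509). The aggrecanase substrate Vcan, versican, differed by 1.03 ± 0.58 (adjusted p = 0.304).

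The calls for the 3 members were compared over 21 alternative ways of processing the arrays or choosing cultures. Serpina3g passed in 19 of the 20 in which it was tested, with differences of 2.36 to 5.31. Adam23 passed in 13 of 21, with differences of 1.80 to 2.94, and Timp3 in 12 of 21, with differences of 0.82 to 1.75. Without both cultures numbered 4, none of the 20 members tested passed limma's test, 3 had an unadjusted p under 0.05, and 38 of 4028 named genes were called. The differences were then 4.11 for Serpina3g, 2.86 for Adam23 (adjusted p = 0.124) and 1.30 for Timp3 (adjusted p = 0.192).

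**Figure D5:**
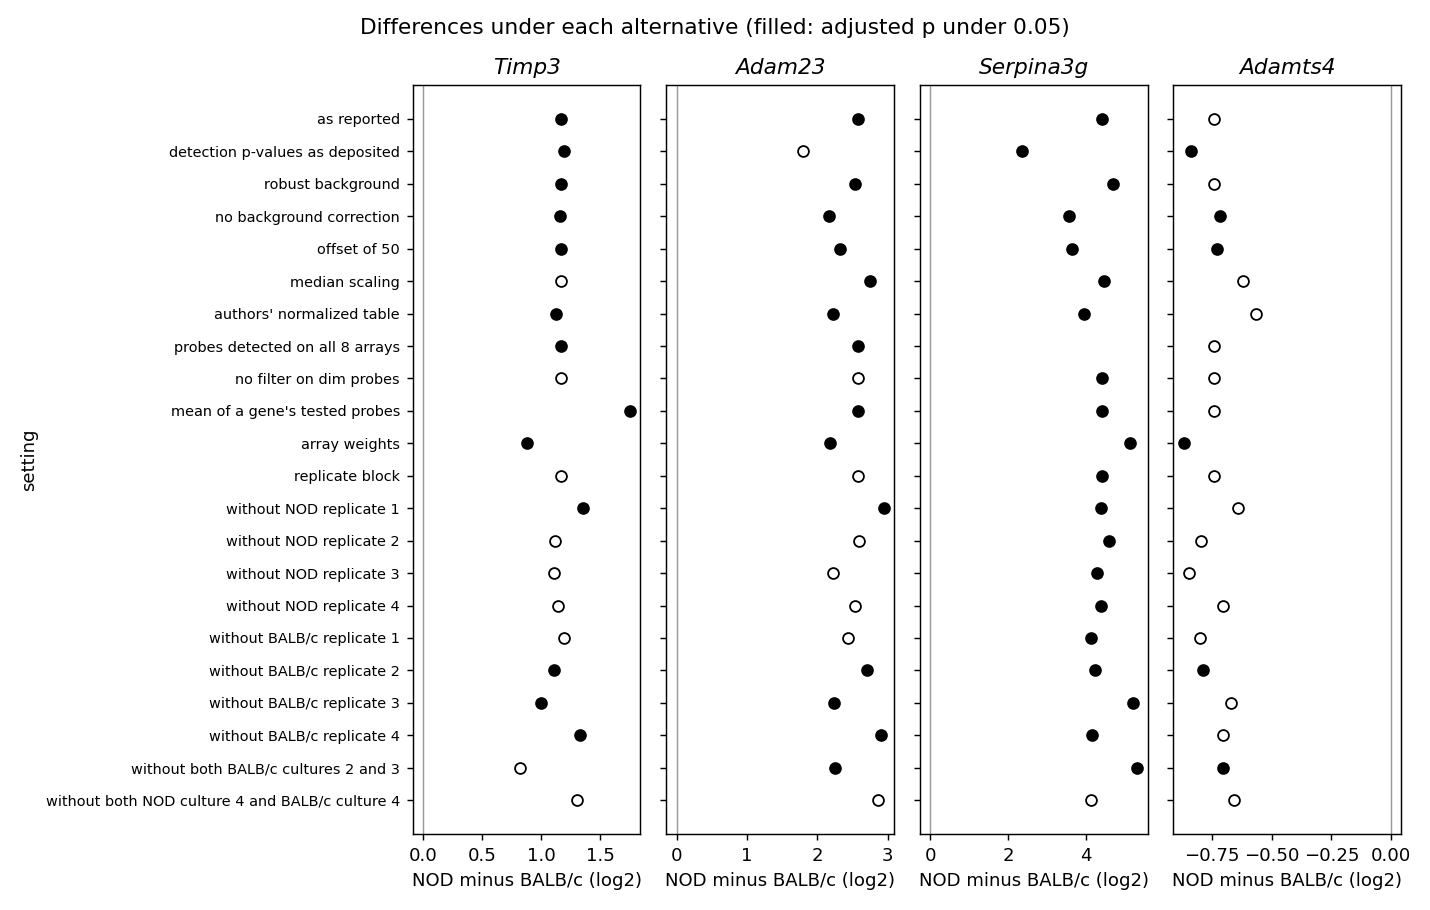
Difference NOD minus BALB/c in log2 signal (x axes, each with its own scale) for Timp3, Adam23, Serpina3g and Adamts4, a panel per gene, under the reported setting and each alternative (y axis), with filled symbols for an adjusted p under 0.05. Every value of the first 3 genes lies right of 0 and every value of Adamts4 left of it, and the symbols are open for Adam23 and Timp3 when NOD culture 2, 3 or 4 or BALB/c culture 1 is left out.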

How the data were processed

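RNA of 8 MSC cultures (4 NOD, 4 BALB/c, grouped by the strain named in the labels) was measured on Illumina arrays. Per the file headers, the deposited table holds the mean bead signal intensity of each probe, not normalized, with a detection p-value, a unit the authors deposited beside each intensity, whose steps match 1603 negative controls. A second deposited table holds the authors' normalized intensity. How it was made, the array model and the software: not given in the sources used. No column belonged to another sample.

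In R 4.3.3 with limma 3.58.1, detection p-values above 0 but below 1 step were set to 0, background was corrected by normexp from the inferred negative controls with an offset of 16, and log2 values were quantile normalized between arrays. As deposited, those p-values raised the background SD from 14.2 to 30.2 up to 198 to 382. Probes detected at p under 0.05 on at least 4 of 8 arrays (17745) entered lmFit and eBayes, p-values were adjusted over them by Benjamini-Hochberg, and each gene was read from its brightest tested probe. The code was tested on simulated data. The number of arrays limits the precision, and the labels name no batch. If cultures of a strain shared a source, p-values measure only the spread between them.

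Zero-padded numbers in 11857 probe identifiers were read as gene IDs, and 9796 (82.6%) matched RefSeq of GRCm38.p6. Promoter sequences are RefSeq's, and all 3 genes matched. The members and lists were chosen with earlier results of these data known. By rule, the text names every called member, Timp3, members without overlap and a difference of at least 1, the brightest of each family and those with the widest ranges, and from the lists the called genes and the brightest. All other tested members and all tested MSC markers were added to be complete. Adamts4, Htra3, Dcn and Vcan were chosen after their values were seen. Deviations of same-numbered cultures from their strain means correlated at -0.33, -0.64, -0.047 and 0.081 for numbers 1 to 4. No clear positive relation was seen, so the numbers were not used as pairs. Leaving out cultures for list genes and second probes was added after seeing the data. Alternatives covered background, offset, normalization, filters, probes of a gene, array weights, a replicate block and left-out cultures.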

Additional observations from a re-analysis of the deposited data

Results flagged for a closer look

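Of 44 groups of 4 cultures (22 members in 2 strains), 6 held a culture whose gap to the nearest of the others exceeded Dixon's 95% critical share of the group's range. Chance gives about 1 in 20. In 4 of the 6 it was BALB/c culture 3. Its level was 8.09 for Serpina3g, with the other BALB/c cultures at 4.90 to 5.27, and 6.33 for Adam12, with the others at 5.00 to 5.20. It was 13.30 for Serpinf1, with the others at 14.33 to 14.42, and 13.91 for Serpinh1, with the others at 14.20 to 14.25. NOD culture 3 was low for Ctsz, at 11.24 with the other NOD cultures at 11.42 to 11.45. NOD culture 1 was high for Serpinb6c, at 6.09 with the others at 5.45 to 5.49, and was the only NOD array to detect that probe.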

How the results depend on the processing

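Of 445 member values under 21 alternatives, 384 kept their direction and side of the threshold, 18 kept the direction and lost the call, 19 kept it and gained a call and 24 changed sign. The count of members called, 3 as reported, was 1 with no filter on dim probes, 1 with the replicate block (Serpina3g, and 128 named genes), 7 without both BALB/c cultures 2 and 3, and 15 with array weights, where 2433 of 4220 named genes were called, the weights did not converge and NOD culture 4 had a weight of 23.7. It was 0 by limma without both cultures numbered 4 (3 at an unadjusted p under 0.05; no other tool was run), and 1 to 4 with each culture left out in turn: 1 without NOD culture 2, 3 or 4 or BALB/c culture 1, and 4 without BALB/c culture 2. Named genes called numbered 384 as reported and 133 to 795 with a culture left out, 215 with detection on all 8 arrays, 1425 without both BALB/c cultures 2 and 3, and 38 without both cultures numbered 4. Under the replicate block the adjusted p was 0.138 for Timp3 and 0.0839 for Adam23. With detection p-values as deposited, Adam23 had an adjusted p of 0.0618, and Adamts4 was called as lower in NOD (-0.84, adjusted p = 0.0394). Adamts4 also passed with no background correction (adjusted p = 0.0417) and with an offset of 50 (0.0455). It passed in 6 of the 21 alternatives. Without both BALB/c cultures 2 and 3, Timp3 lost its call, and Adamts1, Adamts2, Adamts4, Mmp19 and Timp2 were called beside Serpina3g and Adam23.

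No value of Serpina3g, Adam23 or Timp3 changed sign. Leaving out each culture in turn gave -0.22 to 0.71 for Adam19, -0.30 to 0.24 for Adam4, -0.43 to 0.39 for Adamts2, -0.66 to 0.27 for Adamts5 and -0.050 to 0.32 for Serpinf1. Median scaling, which moved the median of all probes by 0.16, gave 0.17 for Adam4, 0.036 for Adamts5 and 0.030 for Serpinb6c. A robust background gave 0.018 for Adam4. The authors' normalized table gave 0.031 for Adamts5 and 0.0081 for Serpinh1. Array weights gave -0.71 for Adamts2 and -0.046 for Serpinf1. Without both BALB/c cultures 2 and 3 the values were -0.72 for Adamts2 and -0.069 for Serpinf1, and without both cultures numbered 4 they were 0.23 for Adam4 and 0.18 for Adamts5. The cause was not tested. Dim probes (Adam12, Serpinb6c, and Serpina3g in BALB/c) are limited by signal over background. With detection required on all 8 arrays, 17 members were tested and Serpina3g had no value.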
